A study of Homo sapiens with 4 samples.

Results

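Kinesins are motor proteins that use ATP to move along microtubules or to take microtubules apart. All 42 protein-coding genes whose current NCBI symbol begins with KIF or KIFC and a digit were taken from the 23308 listed genes with a symbol, and none of the family was missing. They were placed by their textbook roles into a mitotic class of 14 genes, a transport class of 15 genes, and a class of 13 genes that act at the cilium or on microtubule dynamics or are less well characterised. A further matching row, the long non-coding RNA KIF9-AS1, was kept out of the classes. Expression was profiled by RNA-Seq in hTERT RPE-1, a human retinal pigment epithelial cell line of wild type genotype that was immortalized with telomerase. The cells had spent 48 h in medium with 0.1% serum, which arrests most of them in G0/G1, and were then exposed to 200 μM merbarone, a catalytic inhibitor of type II DNA topoisomerases, for 4 h or for 8 h. There were 2 libraries at each time, named as biological replicates by the study, so every library came from starved and treated cells and the comparison was 8 h against 4 h. The labels do not say that the replicates came from separate cultures, and p-values then measure the spread between these libraries, which may be partly technical.

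The 2 main classes of kinesin genes are used at different points in the life of a cell. Mitotic kinesins build and move the spindle, align chromosomes and complete cytokinesis, and their genes are transcribed mostly in G2 and M phase. This timing is set in part through a promoter element called the CHR (cell cycle genes homology region), which binds the DREAM complex in resting cells and B-MYB with FOXM1 in dividing cells, often beside CCAAT boxes bound by NF-Y. Transport kinesins carry vesicles, mitochondria and other organelles in cells of any cycle stage, and several of them also feed cargo into the primary cilium that starved RPE-1 cells form.

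Depth lay between 8064450 and 10324697 counts per library, so that a CPM (counts scaled to the library total) of 1 corresponded to 8.06 to 10.3 reads. A gene was tested where 2 or more libraries exceeded a CPM of 1, as did 34 of the 42 kinesins and 12559 genes in all. Values below are CPM scaled with TMM factors, except where counts are named and for the marker lists, which are CPM without TMM factors. Of 11 markers of the retinal pigment epithelium, 5 passed the same filter (MITF, OTX2, PMEL, KRT8 and KRT18), while RPE65, BEST1, RLBP1, LRAT and TYRP1 had at most 7 counts and TYR had 0 in every library. Summed over the list, CPM reached 815 and 869 in the 4 h libraries, against 687 and 718 later, and most of this difference lay in KRT18 (347 and 381 against 237 and 239). None of 5 immune markers passed, and of 5 multiciliated cell markers only DNAH5 did, with FOXJ1 at 0 or 1 count. Of 8 neuronal markers 5 passed (SYP, SNAP25, SYT1, MAP2 and TUBB3), with RBFOX3 and NEFL at 0, and the summed CPM of the list ran from 397 to 439 with overlap between the times, while MAP2 within it stood at 42.3 and 43.5 against 80.05 and 67.2.

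Most mitotic kinesins fell from 4 h to 8 h, and no transport kinesin passed the test as lower. The classes were drawn with earlier results of these data known, and the counts below depend on them. A gene was called a DEG at an adjusted p below 0.05 with an absolute log2 fold change (log2FC) above 1. Of the 13 mitotic kinesins tested, 9 were DEGs, all lower at 8 h, where 3.88% of all genes tested were DEGs lower at 8 h. At the adjusted p alone 12 of the 13 were lower, against 18.9% of all genes, and for these 12 both 8 h libraries lay below both 4 h libraries, which held for 34.9% of all genes. The median log2FC of the class was −1.23, beside 0.00 for all genes. None of the 13 transport kinesins tested was a DEG and none was lower at the adjusted p alone. In this class 3 were higher at the adjusted p alone, a share near the 19.9% of all genes that were higher, and the median log2FC was 0.03, which became −0.08 with library size in place of TMM. Both 8 h libraries lay above both 4 h libraries for 4 of the 13, against 34.8% of all genes. Among the 8 tested members at the cilium or in microtubule dynamics, 2 were lower and 2 higher at the adjusted p alone. These shares were near the 18.9% and 19.9% of all genes, and DESeq2 gave 1 lower and 0 higher. The median log2FC of these 8 was −0.03, which became 0.04 after a correction for trends with abundance. In bulk RNA, fewer cells in G2 or M phase and less RNA per cell cannot be told apart.

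Summed over its tested members, the mitotic class stood at 562 ± 11.4 CPM at 4 h and 230 ± 17.0 CPM at 8 h (SD, n = 2 each), which was 40.9% of the 4 h sum. The transport class stood at 1211 ± 29.0 CPM and 1335 ± 66.8 CPM (SD, n = 2 each). Counted over all 42 members, mitotic kinesins took 30.3% (95% exact interval 29.6 to 30.9) and 29.1% (28.5 to 29.7) of the kinesin counts in the 4 h libraries and 14.7% (14.1 to 15.2) and 12.7% (12.1 to 13.2) in the 8 h libraries. These intervals cover counting error only. Both 8 h shares lay well below both 4 h shares.

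**Figure D1:**
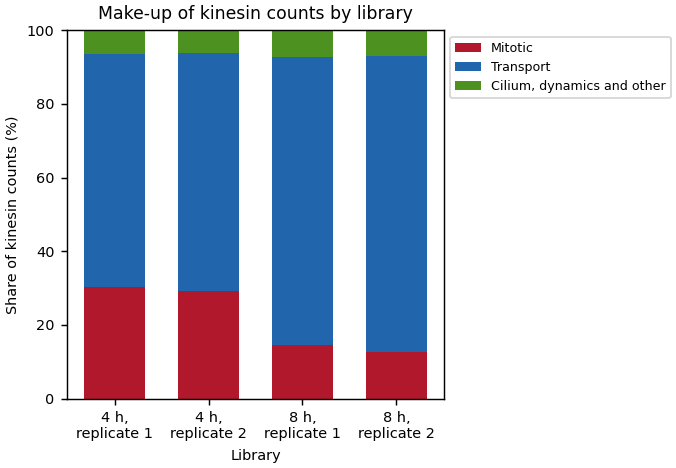
Share of all reads counted on kinesin genes (y axis, percent) taken by the mitotic, transport and remaining class in each of the 4 libraries (x axis). The mitotic part is 30.3% and 29.1% at 4 h, against 14.7% and 12.7% later.

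Among the motors that set up the spindle, KIF11 (Eg5; chromosome 10, 94333862 to 94415152, plus strand, hg19) slides antiparallel microtubules apart to separate the poles. It was measured at 64.6 and 64.7 CPM after 4 h and at 20.04 and 17.6 CPM after 8 h. The replicates at 4 h were almost equal and both later values were well below them, a log2FC of −1.77 (standard error 0.12, adjusted p = 1.98e-09). KIF15 (chromosome 3, 44803213 to 44914868, plus strand), which supports KIF11 in keeping the spindle bipolar, went from 22.5 and 22.4 CPM to 7.57 and 7.25. Its log2FC of −1.60 (standard error 0.17, adjusted p = 6.79e-07) was close to that of KIF11. KIFC1 (chromosome 6, 33359600 to 33377673, plus strand), a minus-end motor that focuses spindle poles, stood at 32.8 and 29.8 CPM at 4 h, against 11.5 and 15.4 CPM at 8 h. Here the 8 h replicates were further apart than for the others, and the log2FC was −1.23 (standard error 0.15, adjusted p = 5.06e-06).

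Motors of the chromosome arms and of the spindle midzone also fell. KIF22 (chromosome 16, 29802048 to 29816706, plus strand) binds DNA and pushes chromosome arms away from the poles. Its level was 79.2 and 79.6 CPM at 4 h, against 39.3 and 35.5 CPM at 8 h (log2FC −1.08, standard error 0.10, adjusted p = 1.2e-07). Neither this gene nor the next overlapped between the times. KIF4A (chromosome X, 69509954 to 69640736, plus strand) acts on condensed chromosomes and, with PRC1, limits the length of midzone microtubules. It declined from 39.6 and 36.0 CPM to 14.6 and 11.3 (log2FC −1.53, standard error 0.15, adjusted p = 1.67e-07). KIF4B (chromosome 5, 154393315 to 154397701, plus strand) is an intronless copy of KIF4A and was listed at 15.9 and 13.7 CPM at 4 h, against 5.33 and 5.05 CPM later (log2FC −1.51, standard error 0.20, adjusted p = 1.11e-05).

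The KIF4B value is uncertain as a measure of a gene of its own. Its counts amounted to 40.2% and 38.1% of those of KIF4A at 4 h, against 36.5% and 44.8% at 8 h, so the ratio between the copies overlapped between the times. Reads were placed without gaps and kept only at a single position of the genome. Of the 4314 windows of 75 bases, the read length, in the spliced KIF4A transcript, 2149 cross an exon junction, and 976 of these (45.4%) match KIF4B with at most 2 mismatches. Whether such junction windows also have a gapless place at KIF4A, and how many of the KIF4B reads came from KIF4A transcripts, was not tested. Of the 2165 windows within 1 exon, 841 (38.8%) also match KIF4B with at most 2 mismatches. Whether reads from these were lost to KIF4A under the single-position rule was not tested either, so the KIF4A counts are not a clean reference. Without KIF4B, 8 of 12 mitotic kinesins were DEGs and their median log2FC was −1.16.

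The motors of cytokinesis held the largest change of the family. KIF20A (MKLP2; chromosome 5, 137514408 to 137523412, plus strand) brings the chromosomal passenger complex to the midzone. It was at 96.1 and 97.2 CPM at 4 h, against 24.9 and 22.0 CPM at 8 h, which is 4.10-fold lower (log2FC −2.04, standard error 0.11, adjusted p = 2.51e-10). KIF23 (MKLP1; chromosome 15, 69706585 to 69740766, plus strand) forms centralspindlin together with RACGAP1, and went from 72.4 and 65.003 CPM to 30.2 and 24.1 (log2FC −1.33, standard error 0.12, adjusted p = 6.99e-08). Both genes separated the times clearly, with KIF20A at the lower end of the class. KIF14, which recruits citron kinase to the midbody, passed the test below the fold threshold, from 28.9 and 27.6 CPM to 14.8 and 16.7 (log2FC −0.85, standard error 0.14, adjusted p = 0.000111). KIF20B, a further cytokinesis motor, changed less, from 34.4 and 26.5 CPM to 20.8 and 16.8 (log2FC −0.69, standard error 0.15, adjusted p = 0.0015). Without replicate 1 of the 4 h libraries, KIF20B no longer passed, with a log2FC of −0.49 (edgeR adjusted p = 0.0676).

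The regulators of microtubule plus ends were divided. KIF18B (chromosome 17, 43002077 to 43025141, minus strand), which shortens astral microtubules, stood at 17.8 and 24.6 CPM at 4 h, against 10.9 and 9.19 CPM at 8 h. Its log2FC of −1.07 (standard error 0.19, adjusted p = 0.000167) lay just beyond the fold threshold, and it was not a DEG in the fits without replicate 2 of 4 h (−0.82), without replicate 2 of 8 h (−0.96) or with each library corrected for its trend with mean log2-CPM (−0.95). KIF2C (MCAK), the depolymerase that corrects wrong kinetochore attachments, lay just inside it, from 52.4 and 55.6 CPM to 30.0 and 26.2 (log2FC −0.94, standard error 0.11, adjusted p = 3.16e-06). KIF18A, which dampens chromosome movements at the metaphase plate, was the exception of the class as drawn here. It was measured at 13.5 and 11.4 CPM at 4 h, against 12.3 and 11.0 CPM at 8 h, so that the times overlapped. Its log2FC was −0.09 (standard error 0.18, adjusted p = 0.712), with an approximate 95% interval from −0.45 to 0.26 that holds the value of no other tested mitotic kinesin.

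**Figure D2:**
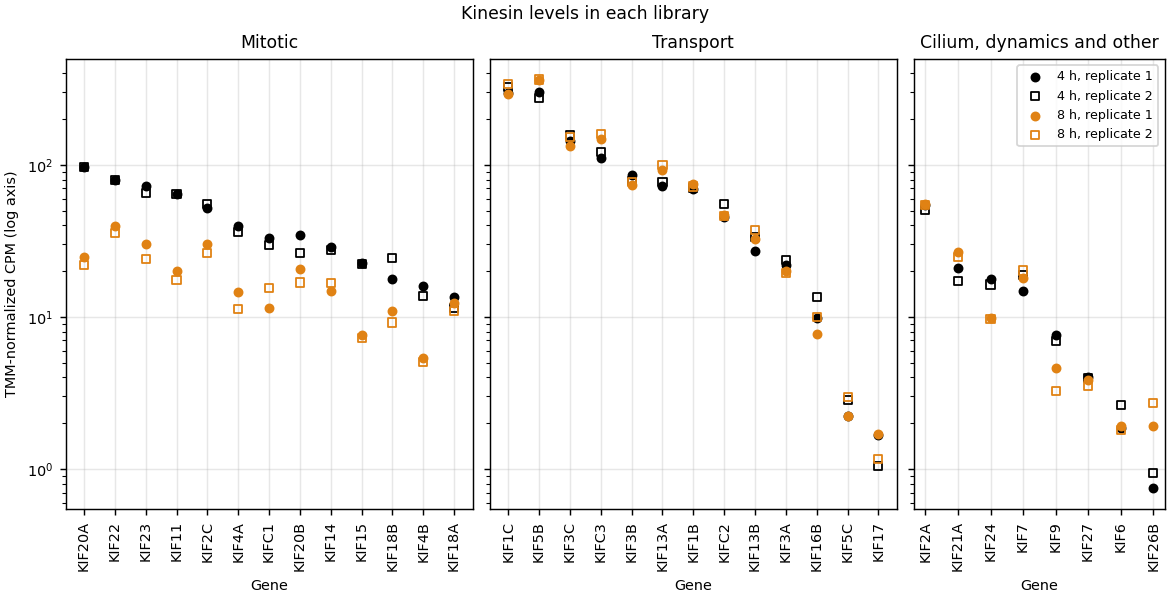
TMM-normalized CPM (log axis) of the 34 tested kinesins in each of the 4 libraries, in 3 panels by class and ordered by the mean at 4 h. Black marks are 4 h and orange marks 8 h; in the mitotic panel the orange marks of 12 of 13 genes lie below the black ones, KIF18A being the gene whose marks overlap.

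Within the mitotic class the ratio between relatives was also followed, and these pairs were chosen after their values were seen. KIF20A over KIF20B gave 2.79 and 3.68 after 4 h, against 1.2 and 1.31 after 8 h. KIF18B over KIF18A gave 1.32 and 2.15, against 0.887 and 0.835. Neither ratio overlapped between the times, while the exact two-sided permutation p was 0.333 for both, the smallest that 2 libraries against 2 allow. Of ratios to a partner, that of KIF4A to PRC1 was apart as well, with 0.124 and 0.110 against 0.0884 and 0.0765 (exact permutation p = 0.333). The ratio of KIF23 to RACGAP1 overlapped, with 0.668 and 0.594 after 4 h, against 0.603 and 0.587 after 8 h (exact permutation p = 0.667).

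What the mitotic kinesins share beyond their change was examined in their promoters. RefSeq windows on GRCh38.p14, from 250 bases before to 50 bases from the annotated start on, were matched to 34 of the 42 members, of which 29 had been tested. The windows were searched on both strands for the CHR letters TTTGAA or TTCGAA, for CCAAT, for the E2F-type letters TTTGGCGC or TTTCGCGC, and for the GC box GGGCGG. Other forms of these elements were not searched for, so a window without the letters may still hold the element. No searched motif contains another, although sites may adjoin, as the E2F and CHR letters of KIF15 do. The stretches below are the 150 bases before the start of members with and without these letters. Capitals mark CHR, CCAAT and E2F letters on either strand, so that ATTGG is a CCAAT box and TTCAAA a CHR read on the other strand. The first sequences belong to mitotic kinesins that hold a CHR before the start:
KIF11, chr10:92592980-92593129, plus strand: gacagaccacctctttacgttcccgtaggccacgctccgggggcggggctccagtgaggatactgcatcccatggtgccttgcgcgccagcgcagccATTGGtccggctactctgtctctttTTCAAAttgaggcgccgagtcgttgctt
KIF4A, chrX:70289954-70290103, plus strand: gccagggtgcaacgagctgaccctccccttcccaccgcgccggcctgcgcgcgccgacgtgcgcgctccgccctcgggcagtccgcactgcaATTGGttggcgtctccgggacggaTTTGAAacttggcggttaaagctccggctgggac
KIF23, chr15:69414199-69414348, plus strand: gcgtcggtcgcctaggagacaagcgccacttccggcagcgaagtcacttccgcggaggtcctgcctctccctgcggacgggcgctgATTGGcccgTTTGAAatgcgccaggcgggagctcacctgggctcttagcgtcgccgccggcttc
KIF22, chr16:29790601-29790750, plus strand: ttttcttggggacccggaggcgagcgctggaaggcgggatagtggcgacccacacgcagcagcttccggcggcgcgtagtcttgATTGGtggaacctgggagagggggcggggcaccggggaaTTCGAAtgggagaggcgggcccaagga
KIF18A, chr11:28108157-28108306, minus strand: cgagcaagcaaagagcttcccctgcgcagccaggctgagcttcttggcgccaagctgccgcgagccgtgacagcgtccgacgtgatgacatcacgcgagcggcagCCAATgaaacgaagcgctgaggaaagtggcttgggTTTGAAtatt
KIF15, chr3:44761644-44761793, plus strand: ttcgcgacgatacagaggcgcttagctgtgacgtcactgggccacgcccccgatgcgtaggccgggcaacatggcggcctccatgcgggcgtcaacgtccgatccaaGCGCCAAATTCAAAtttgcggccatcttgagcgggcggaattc

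KIF20A and KIF2C are the tested mitotic kinesins without the searched CHR letters in the window. Of CHR and CCAAT letters, KIF20A has CCAAT alone and KIF2C neither:
KIF20A, chr5:138178962-138179111, plus strand: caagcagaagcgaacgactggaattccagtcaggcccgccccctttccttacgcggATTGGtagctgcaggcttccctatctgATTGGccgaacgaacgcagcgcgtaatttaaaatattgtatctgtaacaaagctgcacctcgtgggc
KIF2C, chr1:44739687-44739836, plus strand: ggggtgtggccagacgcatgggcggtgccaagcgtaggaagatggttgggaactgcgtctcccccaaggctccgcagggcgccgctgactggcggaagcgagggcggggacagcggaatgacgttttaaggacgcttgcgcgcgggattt

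For comparison, among the members outside the mitotic class with a window KIF24 alone has CCAAT boxes followed by a CHR, the latter lying 2 bases into the transcript and thus outside the stretch shown. KIF5B is the transport kinesin with a CHR, and KIF1C and KIF3A have neither CHR nor CCAAT letters:
KIF24, chr9:34329269-34329418, minus strand: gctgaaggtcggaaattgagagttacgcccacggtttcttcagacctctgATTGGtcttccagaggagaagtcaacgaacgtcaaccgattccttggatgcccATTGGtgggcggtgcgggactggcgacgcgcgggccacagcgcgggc
KIF5B, chr10:32056426-32056575, minus strand: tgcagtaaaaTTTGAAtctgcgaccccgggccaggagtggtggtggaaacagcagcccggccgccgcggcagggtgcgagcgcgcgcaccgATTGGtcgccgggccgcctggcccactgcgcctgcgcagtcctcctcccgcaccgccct
KIF1C, chr17:4997800-4997949, plus strand: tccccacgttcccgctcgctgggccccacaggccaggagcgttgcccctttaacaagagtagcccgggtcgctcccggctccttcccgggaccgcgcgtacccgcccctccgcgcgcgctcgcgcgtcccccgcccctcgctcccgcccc
KIF3A, chr5:132737547-132737696, minus strand: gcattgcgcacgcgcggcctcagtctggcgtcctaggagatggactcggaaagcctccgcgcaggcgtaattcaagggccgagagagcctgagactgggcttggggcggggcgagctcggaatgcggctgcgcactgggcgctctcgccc

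Of the 13 tested mitotic kinesins 11 (84.6%) had a CHR, against 15.5% of the 10183 tested genes with a window and 19.5% of all 27305 genes of the table. CCAAT letters were present in 11 of 13 (84.6%) against 43.4% of tested genes, and both in the same window in 10 of 13 (76.9%) against 6.47%. Among 10 tested transport kinesins with a window, KIF5B alone had a CHR, 4 had CCAAT letters, and all 10 had a GC box, which 77.8% of tested genes have. E2F-type letters occurred in KIF15 alone of the mitotic class, against 2.53% of tested genes. In the mitotic class the CHR nearest to the start lay between base −55 and base 25 of the transcript, before the start in 6 genes and after it in 5. In each of the 10 genes with both, a CCAAT box preceded the CHR, by a median of 29.5 bases between their first bases (range 9 to 122). The CHR of KIF5B lay at base −140, before its CCAAT box. A match is a description of letters and not a bound site, and KIF4A and KIF4B, copies of a common sequence, had the same spacing of 24 bases.

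**Figure D3:**
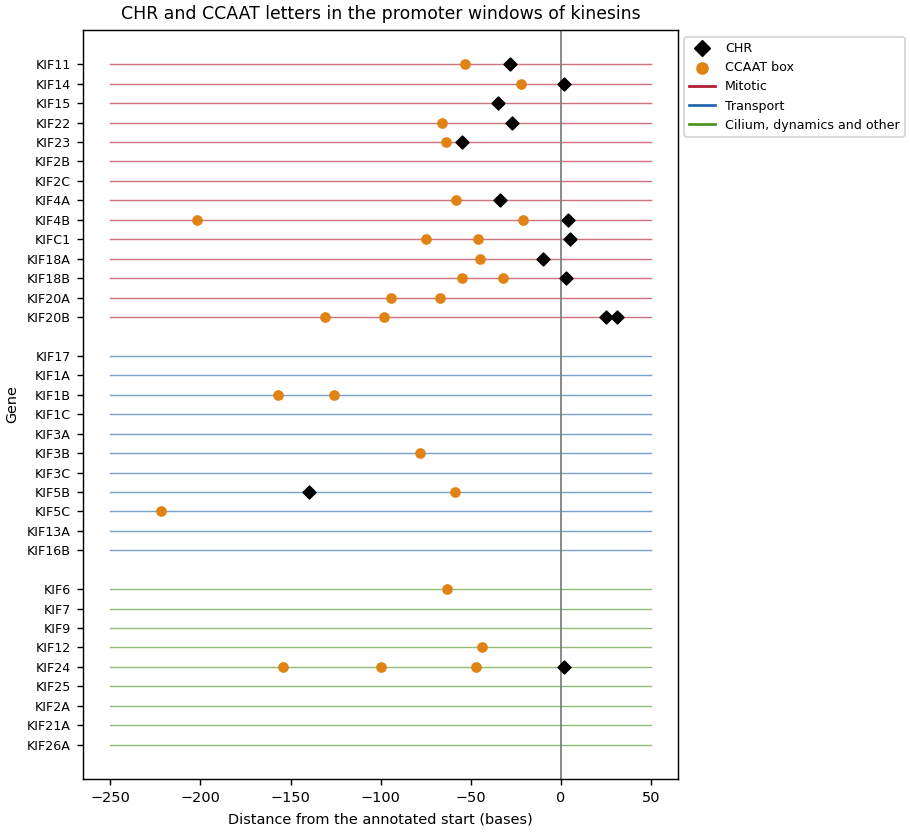
Positions of CHR (black diamonds) and CCAAT letters (orange circles) in the most upstream promoter window of the 34 members with a window; the x axis is the distance in bases from the annotated start and line colours give the class. In 10 mitotic genes and in KIF24 a circle is followed by a diamond near the start.

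Letters and change did not coincide in every member. KIF18A has a CHR at base −10 and a CCAAT box at base −45 and was the mitotic kinesin whose times overlapped. KIF20A had the largest fall without the searched CHR letters in its window. KIF24, with a CHR and CCAAT boxes, fell (log2FC −0.80), and KIF5B, with both letters in the other order, rose (log2FC 0.33). Over all 659 tested genes with CHR and CCAAT letters in the same window, 10.2% were DEGs lower at 8 h and the median log2FC was −0.13, beside 3.31% and 0.00 for the 9524 genes without both. With kinesins left out, 9.27% of 647 such genes were DEGs lower at 8 h.

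Of the transport motors, KIF5B, KIF13A and KIFC3 rose by small amounts. KIF5B (chromosome 10, 32297943 to 32345353, minus strand), the ubiquitous heavy chain of kinesin-1, was at 303 and 273 CPM at 4 h, against 360 and 364 CPM at 8 h, 1.26-fold higher (log2FC 0.33, standard error 0.08, adjusted p = 0.00203). KIF13A (chromosome 6, 17759414 to 17987866, minus strand), which moves recycling endosomes and melanosome cargo, rose from 72.5 and 76.9 CPM to 93.1 and 99.6 (log2FC 0.37, standard error 0.09, adjusted p = 0.00288). KIFC3 (chromosome 16, 57792129 to 57896957, minus strand), a minus-end motor of adherens junctions and Golgi, went from 111 and 122 CPM to 148 and 160 (log2FC 0.40, standard error 0.08, adjusted p = 0.00087). For each of these 3 genes both 8 h libraries lay above both 4 h libraries, and each change was smaller in size than those of the 12 mitotic kinesins that passed. KIF5B did not pass after each library was corrected for its trend with mean log2-CPM (log2FC 0.18, edgeR adjusted p = 0.0632), nor without replicate 2 of 4 h (0.26, adjusted p = 0.0814). KIF13A did not pass without replicate 1 of 4 h (0.32, edgeR adjusted p = 0.0662).

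The other 10 tested transport kinesins did not pass, with log2FC from −0.42 (KIF16B, an endosome motor; adjusted p = 0.126) to 0.19 (KIF13B; adjusted p = 0.25). KIF1C, a motor of dense-core vesicles and integrins, was at 297 and 325 CPM at 4 h, against 293 and 340 CPM at 8 h. Its log2FC of 0.03 had an approximate 95% interval from −0.14 to 0.19, which leaves out the values of the 12 mitotic kinesins that passed and holds that of KIF18A. The subunits of kinesin-2, which drives anterograde transport in the cilium, had log2FC of −0.20 (KIF3A), −0.12 (KIF3B) and −0.07 (KIF3C), none of which passed the test. The ratio of KIF3A to KIF3B ran from 0.252 to 0.301 and overlapped between the times. Other ratios of transport motors were apart, as in the mitotic class. KIF13A over KIF13B gave 2.654 and 2.299 at 4 h, against 2.881 and 2.661 at 8 h, a narrow gap. KIF5B over its light chain KLC1 gave 2.11 and 1.93, against 2.84 and 2.58 (exact permutation p = 0.333 for both). KIF5C and KIF17, known mainly from neurons, rested on 21 to 30 and 9 to 18 counts per library, and their approximate 95% intervals ran from −0.65 to 0.69 and from −0.79 to 0.98.

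Of the members at the cilium or in microtubule dynamics, KIF24 and KIF9 passed as lower and KIF21A and KIF26B as higher, shares near those of all genes. KIF24 (chromosome 9, 34252378 to 34329266, minus strand), a centriolar depolymerase that holds back cilium formation, declined from 17.8 and 16.3 CPM to 9.81 and 9.71 (log2FC −0.80, standard error 0.17, adjusted p = 0.00107). KIF9 (chromosome 3, 47269488 to 47324941, minus strand), known from motile cilia, fell from 7.58 and 6.99 CPM to 4.58 and 3.24 (log2FC −0.88, standard error 0.25, adjusted p = 0.00908), a call that was lost in DESeq2 (adjusted p = 0.0701), without replicate 1 of 4 h (0.0737) and without replicate 2 of 8 h (0.0605). KIF21A (chromosome 12, 39687030 to 39837192, minus strand), which restrains microtubule growth at the cell cortex, was at 20.9 and 17.3 CPM at 4 h, against 26.9 and 24.9 CPM at 8 h. Its log2FC of 0.44 (standard error 0.14, adjusted p = 0.021) did not pass with library size in place of TMM (0.33, edgeR adjusted p = 0.0726) or in DESeq2 (adjusted p = 0.0906), nor without replicate 2 of 4 h (0.232) or replicate 1 of 8 h (0.0715). KIF2A, which depolymerizes microtubules at spindle poles and in neurons, had a log2FC of 0.06 (adjusted p = 0.686), and the Hedgehog regulator KIF7 one of 0.18 (adjusted p = 0.406). Given its role at spindle poles, KIF2A might also be classed as mitotic, as a further member that did not pass.

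KIF26B, an atypical kinesin, was the DEG higher at 8 h, beside 1.45% of all genes. It rested on 8 and 10 counts at 4 h and 18 and 21 at 8 h (log2FC 1.42, standard error 0.44, adjusted p = 0.0151). It was the only kinesin that passed the CPM filter through 1 time alone, so it had to differ in order to be tested. It did not pass in DESeq2 (adjusted p = 0.119), and over the fits without 1 library its adjusted p ran from 0.00799 to 0.117, passing in the fit without replicate 1 of 8 h alone.

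**Figure D4:**
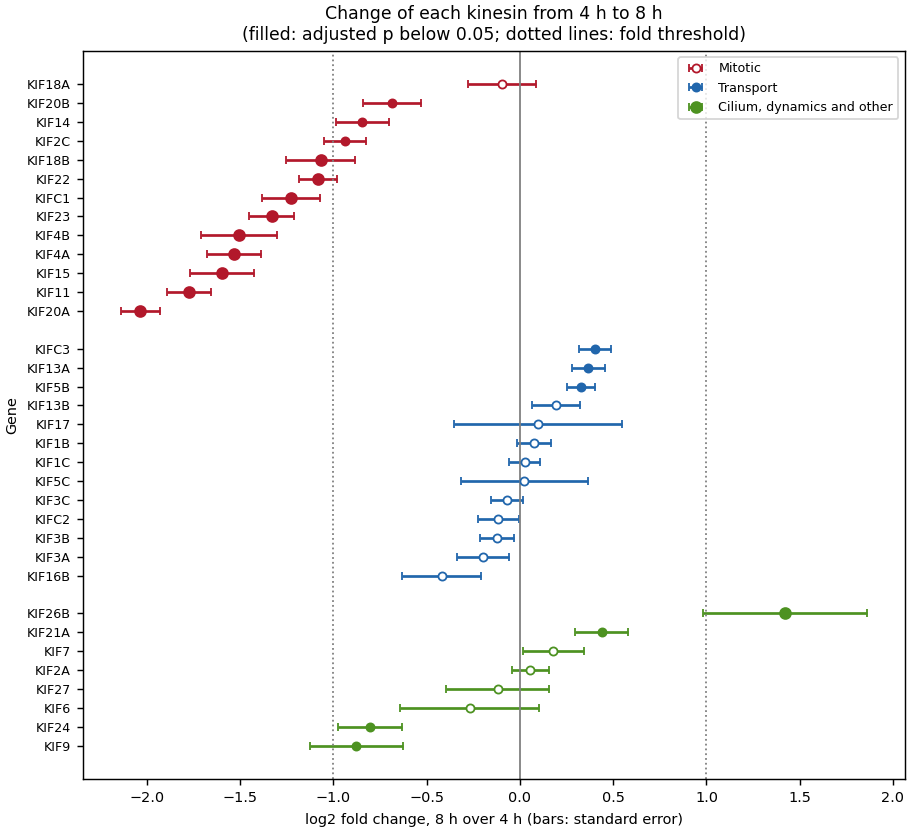
log2FC of 8 h over 4 h (x axis) with its standard error for the 34 tested kinesins (y axis), coloured by class; filled points passed an adjusted p of 0.05 and dotted lines mark the fold threshold. The mitotic genes run from −2.04 to −0.09, the transport genes from −0.42 to 0.40.

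The 8 members that did not pass the filter were near or at 0. KIF2B of the mitotic class and KIF12, KIF19, KIF25 and KIF26A had 0 counts in all 4 libraries, which allows up to 3 counts in each. The neuronal motors KIF1A and KIF5A had at most 1 count in a library, and KIF21B had between 1 and 6.

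Levels of different genes were compared per length, as CPM per kilobase of positions at which a 75-base read lies within 1 exon of the canonical transcript. For KIF5C, which had no canonical transcript in the annotation, the longest coding transcript was used. At 4 h the highest were KIF22 (74.5 ± 0.223), KIF5B (71.8 ± 5.33), KIFC3 (60.3 ± 4.05) and KIF20A (57.0 ± 0.488; SD, n = 2 each). KIF22 and KIF5B did not differ beyond their spread, nor did KIFC3 and KIF20A. At 8 h the order was KIF5B (90.1 ± 0.653), KIFC3 (79.7 ± 4.09), KIF1C (50.8 ± 5.34) and KIF22 (35.1 ± 2.56), and KIF20A stood at 13.9 ± 1.22. The gene annotation behind the counts is not given, and these levels depend on it.

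Several members overlap a listed gene on the opposite strand. The library kit keeps the strand, but its use in counting is not given. KIF20A overlaps CDC23, which had 459 to 509 counts at 4 h and 322 to 365 at 8 h (log2FC −0.18), and KIF4A overlaps PDZD11 (log2FC 0.16). KIF24 overlaps UBAP1, which rose (log2FC 0.51), and KIF7 overlaps TICRR, a replication gene that fell (log2FC −1.23). KIF9 overlaps KIF9-AS1, which had 84 and 87 counts at 4 h and 60 and 58 at 8 h (log2FC −0.22). KIF2A overlaps DIMT1 (log2FC 0.20), and KIFC2 overlaps FOXH1, which had 3 to 7 counts per library and was not tested. Of the pairs with both genes tested, KIF20A, KIF9 and KIF2A had a log2FC of the same sign as the overlapping gene. KIF4A, KIF24 and KIF7 had one of the opposite sign. The part of shared reads in each value was not tested.

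Most partners of the mitotic kinesins fell as well. Of 17 such genes, all tested, 16 were lower at the adjusted p alone and 9 were DEGs, against 18.9% and 3.88% of all genes, with a median log2FC of −1.05. CENPE, the kinesin-7 of kinetochores whose symbol lies outside the family rule, was at 57.1 and 48.8 CPM at 4 h, against 28.1 and 25.9 CPM at 8 h (log2FC −0.97, standard error 0.12, adjusted p = 3.51e-06). TPX2, which targets KIF11 and KIF15 to the spindle, had a log2FC of −1.23, RACGAP1 one of −1.25 and the KIF4A partner PRC1 one of −1.05 (adjusted p = 2.08e-09, 1.78e-08 and 1.06e-08). The other DEGs were HMMR (−1.72), PLK1 (−1.63), AURKA (−1.60), NUSAP1 (−1.40), ECT2 (−1.12) and CIT (−1.11). In the chromosomal passenger complex the changes were smaller, at −0.92 for BIRC5, −0.64 for INCENP, −0.60 for AURKB and −0.51 for CDCA8, all of which passed the test. NUMA1, a spindle pole protein with roles in the interphase nucleus, was the member that did not pass (log2FC 0.05, adjusted p = 0.621).

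Light chains and cargo adaptors of the transport kinesins gave another picture. Of 21 genes 18 were tested, none was a DEG, 8 were higher and 1 lower at the adjusted p alone, against 19.9% and 18.9% of all genes, and the median log2FC was 0.18. Without replicate 1 of 4 h, 4 were higher and 0 lower, and DESeq2 gave 6 and 0. With library size in place of TMM, which lowers the median of all genes by 0.11, there were 6 higher and 2 lower. PLEKHM2, an adaptor between kinesin-1 and lysosomes, was at 192 and 210 CPM at 4 h, against 261 and 296 CPM at 8 h (log2FC 0.47, standard error 0.08, adjusted p = 0.000174). Both later libraries lay above both earlier ones. The mitochondrial adaptors TRAK1 and TRAK2 (0.40 and 0.37) and the JNK scaffold proteins MAPK8IP3 and MAPK8IP1 (0.48 and 0.40) rose as well. These 4 genes and PLEKHM2 were picked from the list after their values were seen. Of the 18 tested genes 9 did not pass, among them SPAG9 (0.004), RHOT1 (0.02) and RHOT2 (0.04). The light chains were divided between KLC2 (0.26, adjusted p = 0.0325), KLC4 (−0.46, adjusted p = 0.0242) and KLC1 (−0.09, adjusted p = 0.406). The kinesin-2 subunit KIFAP3 (−0.22, adjusted p = 0.229) and the kinesin-binding protein KIFBP (−0.17, adjusted p = 0.137) did not pass.

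**Figure D5:**
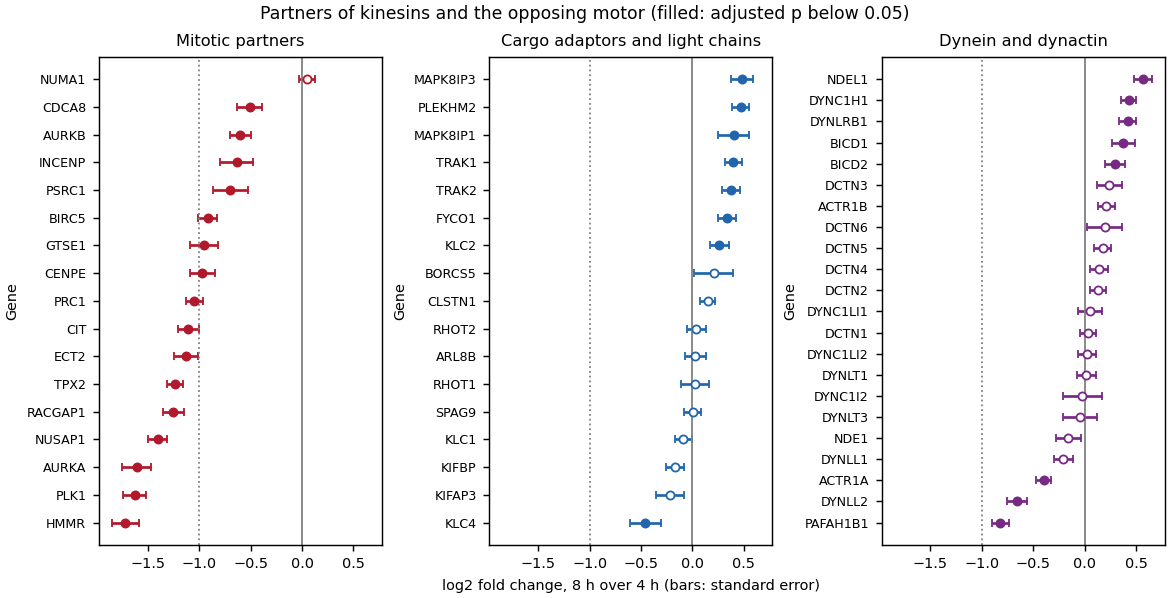
log2FC of 8 h over 4 h (x axis) with its standard error for genes (y axis) of mitotic kinesin partners, of light chains and cargo adaptors, and of dynein with dynactin; filled points passed an adjusted p of 0.05. All mitotic partners but NUMA1 lie below 0, whereas the other panels hold genes on both sides.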

How the data were processed

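RPE-1 RNA was sequenced as single reads of 75 bases from 4 stranded mRNA libraries, 2 at 4 h and 2 at 8 h of merbarone. Alignment was to hg19 by Bowtie (1.2.0 per the labels) with uniquely placed reads retained, and the authors deposited unnormalized, unfiltered counts for each NCBI Gene identifier. The counting tool, annotation and use of strand are not given in the sources used here. Gapless mapping loses reads across exon junctions. Symbols came from RefSeq (GRCh38.p14; 23308 genes matched) and hg19 positions from GENCODE v44lift37.

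Genes exceeding a CPM of 1 in 2 or more libraries entered the quasi-likelihood test of edgeR 4.0.16 (R 4.3.3) after TMM, with time as the only term and Benjamini-Hochberg adjustment over all 12559 genes. DEGs had an adjusted p below 0.05 and an absolute log2FC above 1. The standard error is the log2FC divided by the square root of F. Alternatives were Limma-Voom (limma 3.58.1), DESeq2 1.42.0, library size, RLE, other filters, a replicate block, a trend correction, glmTreat and leaving out each library. Same-numbered libraries did not deviate together (r = 0.0484 across genes, which are not independent). Replicates were not copies, since their chi-square per degree of freedom was 2.67 at 4 h and 3.84 at 8 h. The tests were tried on simulated counts. The members, classes, partner lists and motifs were chosen with earlier results of these data known. Values in every library were given for kinesins that passed the test, for CENPE and for some other genes, among them KIF18A, KIF1C and PLEKHM2. The log2FC was given for DEGs among partners and for some partners that were not DEGs. With 2 libraries against 2, an exact permutation test cannot go below 0.333. Exposure and time in low serum cannot be told apart, as untreated cells were not analysed here. Protein sequences were not used. Of the cargo adaptor list, 1 gene is counted but not reported singly here or plotted.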

Additional observations from a re-analysis of the deposited data

How the results depend on the processing

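The count of 9 kinesin DEGs lower at 8 h was 4 with glmTreat (KIF20A, KIF11, KIF15 and KIF4A), which tests whether a change exceeds the fold threshold, and ran from 8 to 11 over the fits without 1 library. The 1 DEG higher, KIF26B, was 0 in DESeq2, with a CPM filter of 2 and with glmTreat, and 0 to 1 without 1 library. The 5 kinesins higher at the adjusted p alone were 3 in DESeq2 and 2 to 4 without 1 library. Library size in place of TMM moved the class medians to −1.33 (mitotic), −0.0808 (transport) and −0.14 (cilium and dynamics), following the shift of −0.11 of all genes, and the trend correction moved the last to 0.0435. Without 1 library the transport median ran from −0.0846 (without replicate 2 of 8 h, where KIF16B passed as lower) to 0.0839. Among all genes, glmTreat gave 58 lower and 26 higher DEGs in place of 487 and 182, library size 640 and 125, the trend correction 338 and 263, and DESeq2 1503 lower at the adjusted p alone in place of 2368. Without 1 library the latter ran from 1509 to 2294, and the 2500 higher genes from 1605 to 2534. In these fits a lone library is assumed to vary like the others. With the replicate block there were 9 lower and 1 higher kinesin DEGs, the same 10 genes, and all genes gave 498 and 193. Whether same-numbered libraries belong together is not stated in the labels, and neither this fit nor the correlation of their deviations can decide it. Of 268 comparisons of single kinesins with the other alternatives, 263 stayed on their side of the adjusted p threshold and 5 lost it. The fold threshold, glmTreat and genes without an adjusted p in a fit did not enter these comparisons. They therefore do not measure how stable the DEG calls were. KIF18B was lost as a DEG after the trend correction (log2FC −0.95), and KIF2C was gained with library size (−1.04). Without 1 library, calls at the adjusted p alone were also lost, as given above for single genes. In those fits the log2FC ran from −1.29 to −0.82 for KIF18B and from −1.04 to −0.85 for KIF2C. Where a call was lost outside a left-out library, the cause was not tested. Depth limits KIF5C, KIF6, KIF17 and KIF26B, with at most 30 counts in any library.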

Other observations

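Cytoplasmic dynein with dynactin moves cargo toward the microtubule minus end, against most transport kinesins. Of 24 genes of this motor and its regulators 22 were tested, none was a DEG, and at the adjusted p alone 5 were higher and 3 lower, against 19.9% and 18.9% of all genes, with a median log2FC of 0.09 that became −0.02 with library size in place of TMM. The 5 were 3 in DESeq2, with library size and without replicate 1 of 4 h. The heavy chain DYNC1H1 was at 408 and 400 CPM at 4 h, against 566 and 522 CPM at 8 h (log2FC 0.43, edgeR adjusted p = 0.000119). The regulators LIS1 and NDEL1, which bind each other on dynein, moved in opposite directions. PAFAH1B1, the gene of LIS1, was at 159 and 160 CPM at 4 h, against 95.1 and 85.3 CPM at 8 h (log2FC −0.82, edgeR adjusted p = 4.41e-07), while NDEL1 went from 77.9 in both 4 h libraries to 112 and 119 (log2FC 0.57, edgeR adjusted p = 3.77e-05). The light chain DYNLL2 fell (−0.66) and the light chain DYNLRB1 rose (0.42). These genes were picked from the list after their values were seen.

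The median gene span was 34.2 kb for the tested mitotic kinesins and 57.4 kb for the tested transport kinesins. Across the 34 tested kinesins, log10 of the gene span and log2FC had a Pearson r of 0.53 and a Spearman rho of 0.43. Within the 13 mitotic kinesins these were 0.29 and 0.09, and within the other 21 they were 0.34 and 0.19. The genes share the 4 libraries and are not replicates, so no p is given. KIF26B, which had to differ in order to be tested, had the longest span (554448 bases) and the highest log2FC (1.42) of the 34. KIF4B, whose value is uncertain as given above, had the shortest span (4387 bases). Coefficients without these genes were not computed.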
